A study of Mus musculus with 12 samples.

Results

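The transcript profile of MIN6 cells in classic conditions was described from 4 of the 12 arrays of the series, chosen by their titles and culture labels and not by any measured value. Classic conditions (CC) were medium with serum at 20% oxygen. MIN6 is a mouse insulinoma line from transgenic animals in which the insulin promoter drove the SV40 large T antigen, and it stands in culture for the beta cell of the islet. It is a tumour line, so other islet and pancreatic cells were not part of the culture as labelled. All 4 cultures had been transfected at 2 uM, 2 with siRNA to Hes3, which encodes a basic helix-loop-helix repressor, and 2 with scrambled control siRNA. They were plated at 50000 cells per well and assayed 12 to 24 h after transfection, and 250 ng of RNA was labelled per array. No untransfected culture was among them, so every level below is that of a transfected culture. The other 8 arrays came from serum free medium at 5% oxygen and are not described here.

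Beta cells read blood glucose through its uptake and oxidation. The resulting ATP closes a potassium channel, calcium enters, and granules that hold insulin fuse with the plasma membrane. Insulin is made as a precursor that is moved into the endoplasmic reticulum (ER), folded, carried through the Golgi apparatus and cleaved inside the granule by prohormone convertases. Mature beta cells also keep some widely used genes of metabolism at low levels, which are called disallowed genes. The questions addressed are therefore which hormones, islet factors, secretory and metabolic genes gave bright signals in the line, and which genes of other lineages lay near background.

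The measurement was the deposited log2 signal of Affymetrix probe sets, averaged over the 4 arrays and given with its SD (n = 4). A gene was represented by its brightest probe set with a single gene symbol, which gave 19938 genes. A gene was called bright when at least 90% of the other genes were lower, at a mean of 10.27 or more, which by construction holds for 1994 genes (10%). A gene was called near background when its mean lay at or below 7.45, the 95th percentile of 1190 olfactory and vomeronasal receptor genes, whose median was 5.64. By that limit 7220 genes (36.2%) were near background, and 60 receptor genes lay above it. A limit of each array's own receptor genes, between 7.29 and 7.53, was exceeded by 12192 genes in all 4 arrays, by 6773 in none and by 973 in some. Signals of different probe sets depend on how well their probes bind and are not scaled by length, so an order of signals is not an order of transcript numbers. Likewise, a signal near background says only that the gene could not be told from the receptor genes on these arrays.

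**Figure D1:**
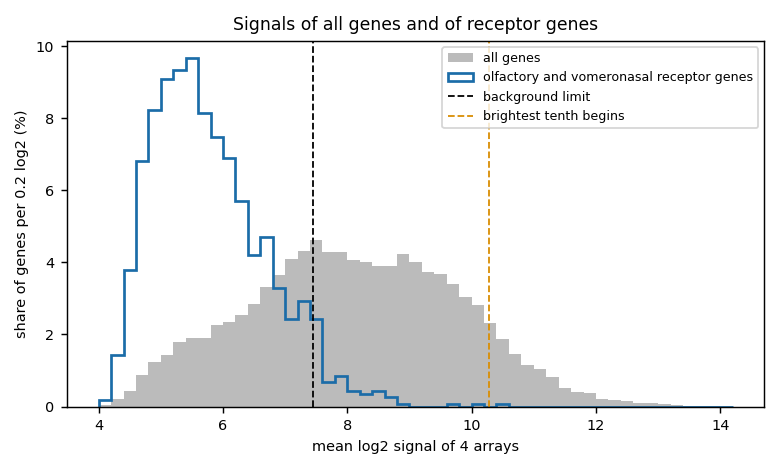
Share of genes (y axis, percent per 0.2 log2) by mean log2 signal of the 4 arrays (x axis), for all 19938 genes (grey) and the 1190 olfactory and vomeronasal receptor genes (blue line). The receptor genes centre on a median of 5.64; the black dashed line is the background limit of 7.45 and the orange dashed line is the level of 10.27 from which genes are called bright.

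The arrays resembled each other closely. Their medians over all probe sets ran from 7.78 to 7.88, and pairs of arrays correlated with r between 0.991 and 0.995 across probe sets. The lowest r was that of both scrambled arrays and the highest that of both arrays labelled Hes3 siRNA. The median SD of a gene over the 4 arrays was 0.0924 log2. Among genes above the background limit, the median span of ranks over the arrays was 688 places, and among bright genes it was 243.75 places. The labels describe the duplicates as samples of a single experiment, so this spread may be technical, and the number of arrays limits the precision.

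Hes3 itself, the target of the siRNA, gave 7.22 and 7.23 in the arrays labelled Hes3 siRNA and 7.23 and 6.82 in the scrambled arrays. Its mean was 7.12 ± 0.204 (SD, n = 4), with 29.3% of the other genes lower, and it exceeded the array's own limit in 0 of 4 arrays. The array labels could therefore not be checked by this gene. No test between the labels was made, since 2 arrays against 2 cannot give an exact two-sided permutation p below 0.333. None of the 805 measured genes of the lists described below had label means more than 0.5 log2 apart. Such gaps were rare throughout: of all 12718 genes above the background limit, 14 had one. Besides 10 small nucleolar RNAs these were the small RNAs Rny1 and Rny3, the snoRNA host gene Gas5 and the kinase gene Plk2, the latter 2 named after their values were seen. Plk2 had a mean of 8.06 in the arrays labelled Hes3 siRNA and 8.64 in the scrambled arrays. Gaps this large were too rare for their absence from the lists to say anything about the list genes. The 4 arrays share a culture condition and are treated as 4 samples of it. An absence of label effects was not shown.

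The brightest gene supported by a RefSeq messenger RNA was Iapp, which encodes islet amyloid polypeptide, the peptide that beta cells release together with insulin. Iapp gave 13.82, 13.81, 13.82 and 13.86 in the order Hes3-labelled 1, Hes3-labelled 2, scrambled 1 and scrambled 2, an order kept for all values by array below. Its rank was 2 or 3 in every array. The next named genes were Chga, the granin chromogranin A, at 13.67 ± 0.0230, and Cck, the peptide hormone cholecystokinin, at 13.58 ± 0.0358. Cck held rank 5 in each array. By mean signal a hormone, a granin and another hormone thus held ranks 3 to 5.

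Other symbols stood above Iapp, neither through a messenger RNA. Rn7sk, a small nuclear RNA that restrains transcript elongation, had rank 2 at 13.85. The probe set assigned to Baiap2l1, an actin-binding adaptor protein, gave 13.94, 13.93, 13.99 and 13.99 and ranked 1. That probe set, like another assigned to Baiap2l1 at 12.15, lists no messenger RNA accession of RefSeq, only noncoding and GenBank records. The tables used here do not name the genes of those noncoding records, so they do not settle which RNA the signal of rank 1 measures. The probe set that does list a messenger RNA of Baiap2l1 had a mean of 9.54, with 78.9% of genes lower. Kcnma1, the pore subunit of the large-conductance calcium-activated potassium channel, ranked 6 at 13.49 ± 0.0370 through a probe set of the same kind. Its messenger RNA probe set gave 10.51, which is still bright. The places of these symbols among the brightest genes are therefore those of a probe set and not certainly those of the gene.

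Among the 30 brightest named genes, 12 were in the secretory lists, 8 in the islet lists, 2 in the list of genes used by most cell types, 0 in the metabolic lists and 8 in no list. The islet count includes Kcnma1 and the count of no list Baiap2l1. Their messenger RNA probe sets, at 10.51 and 9.54, lay below all of the 30. The 30 genes spanned 0.981 log2, from 13.96 to 12.98, and all 30 were among the top 100 in every array. Steps between neighbours exceeded the larger of their SDs only from Baiap2l1 down to Slc38a5 and from Pcsk1 to Ptprn. The order of neighbours within the rest is therefore not resolved by this measure. Genes further apart could keep their order in every array, as did Chgb at ranks 14 to 16 and Calr at ranks 27 to 32. The islet genes after Cck and Kcnma1 were Npy, the peptide neuropeptide Y, at 13.27 ± 0.0664, G6pc2, the islet glucose-6-phosphatase, at 13.23 ± 0.0397, Dlk1, a membrane protein related to Notch ligands, at 13.20 ± 0.0363, Pcsk1n, the precursor proSAAS, at 13.15 ± 0.0418, and Ttr, transthyretin, at 13.11 ± 0.0658. Granule genes were Pcsk1, the prohormone convertase that opens proinsulin, at 13.40 ± 0.0429, Ptprn, the granule membrane protein IA-2, at 13.32 ± 0.0592, and Chgb, chromogranin B, at 13.24 ± 0.0139.

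The ER supplied the other large group of the 30. Hspa5, the chaperone BiP, gave 13.28 ± 0.0625, Hsp90b1, the chaperone GRP94, 13.12 ± 0.0352, and the lectin chaperones Canx and Calr 13.09 ± 0.0370 and 13.04 ± 0.0448. Sec61a1, the pore through which proteins enter the ER, gave 13.13 ± 0.0460. Dad1 and Stt3a, both subunits of the oligosaccharyltransferase that attaches sugar chains, gave 13.19 ± 0.0201 and 13.10 ± 0.0654, and Ssr2, a subunit of the translocon-associated complex, gave 12.98. Actb, the cytoskeletal actin, at 13.43, and Eef1a1, the translation elongation factor, at 13.42, stood for the genes of most cell types. Outside the lists were Slc38a5, a glutamine transporter, at 13.44, Gng12, a G protein gamma subunit, at 13.27, the mitochondrial gene COX2 for a subunit of cytochrome c oxidase at 13.21, Psap, the saposin precursor of the lysosome, at 13.15, Ece1, an endothelin-converting protease, at 13.06, Pappa2, a protease of insulin-like growth factor binding proteins, at 13.01, and Cd164, a sialomucin, at 12.98.

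**Figure D2:**
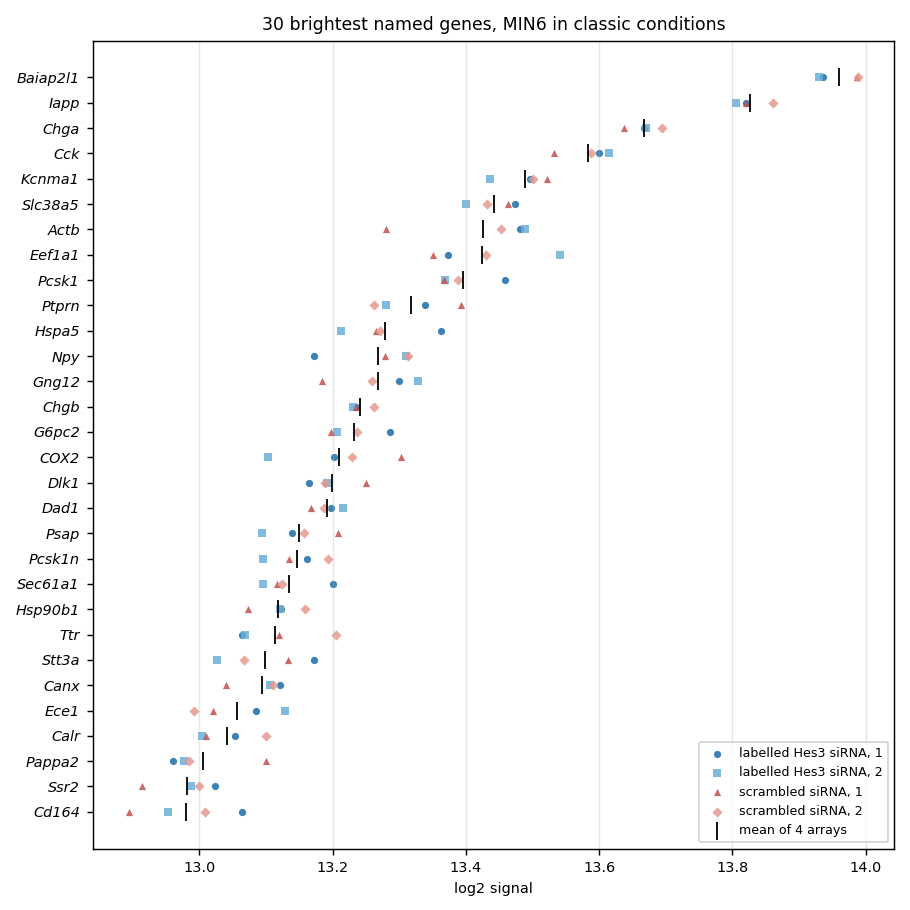
Log2 signal (x axis) of the 30 brightest named genes (y axis, by mean) in each of the 4 arrays, with symbols for arrays and a vertical bar for the mean. Baiap2l1 and Iapp stand apart from the rest at 13.96 and 13.83, and below Slc38a5 at 13.44 the points of neighbouring genes mostly overlap.

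The wider top 100 genes, from 13.96 down to 12.44, held 29 genes of the secretory lists, 13 of the islet lists, 11 of the metabolic lists, 6 of the reference lists, 0 of the non-endocrine lists and 41 of no list. Of those 41, 5 encode ribosomal proteins of the cytosol. Of 62 such ribosomal protein genes measured, 35 were bright (56.5%, beside 10% of all genes) and 3 were near background. Those 3 were the like-named relatives Rpl10l at 7.42, Rpl3l at 6.64 and Rpl39l at 5.92, whereas Rpl10 itself gave 12.92. In the top 100, Kcnma1 and Baiap2l1 are again counted by their brightest probe sets.

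Of 148 measured genes in the islet lists, 43 were bright (29.1%, beside 10% of all genes) and 31 were near background (20.9%, beside 36.2%). The hormone list was split sharply. Of its 20 members, 10 were bright, 6 lay between and 4 were near background. Not all members are hormones: the bright ones include the membrane proteins Dlk1 and Nnat. Ins2, which encodes insulin, gave 12.85, 12.89, 12.83 and 12.89, a mean of 12.87 ± 0.0281 at ranks 41 to 47. Gcg, which encodes glucagon, the hormone of alpha cells, gave 12.62, 12.61, 12.48 and 12.66, at ranks 68 to 77. Sst, the somatostatin of delta cells, gave 11.68, 11.72, 11.54 and 11.73, at ranks 293 to 328. The line thus gave bright signals for hormones of 3 islet cell types in every array, and their ranges of ranks did not overlap. The insulin gene Ins1 was not analysed here.

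The remaining members of the list were graded. Nnat, neuronatin, a small membrane protein of the ER, was bright at 11.04 ± 0.115. Cartpt, a peptide of neurons and of some islet cells, gave 9.24 ± 0.0920, Ppy, the pancreatic polypeptide, 8.73 ± 0.0855, Ghrl, the ghrelin of epsilon cells, 8.62 ± 0.0779, Gast, gastrin, 8.52 ± 0.0988, Pyy, peptide YY, 8.23 ± 0.0265, and Nppb, a natriuretic peptide, 7.76 ± 0.0899. Those 6 genes exceeded the array's own limit in all 4 arrays. Ucn3, the urocortin that marks mature beta cells, gave 7.16, 7.37, 7.25 and 7.20 and exceeded it in 0 of 4. Adcyap1, the peptide PACAP, at 6.95, Gal, galanin, at 6.11, and Tac1, the tachykinin precursor, at 5.38 did not exceed it in any array either.

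Of 24 beta cell transcription factors, 10 were bright (41.7%, beside 10% of all genes) and 4 near background (16.7%, beside 36.2%). Pdx1, which activates the insulin gene and is needed for pancreas formation, was the brightest at 11.58, 11.68, 11.53 and 11.67. Pax6, Neurod1 and Rfx6, factors of endocrine differentiation, followed at 11.47 ± 0.0275, 11.42 ± 0.106 and 11.36 ± 0.0879. Mlxipl, the glucose-responsive factor ChREBP, gave 11.28 ± 0.123, and Isl1, a LIM homeodomain factor of all islet endocrine cells, 10.72 ± 0.0209. These values overlapped between neighbours from Pax6 to Mlxipl. Mafa, the insulin gene activator of mature beta cells, gave 10.39, 10.57, 10.30 and 10.62, just inside the bright range, as did Nkx6-1, which keeps beta cell identity, at 10.35 ± 0.126. St18 at 10.59 and Insm1 at 10.44, both zinc finger factors, were also bright.

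Glis3, an activator of the insulin gene, at 10.22 ± 0.0739, and Nkx2-2, an islet homeodomain factor, at 10.09 ± 0.127, fell just outside the bright range. Intermediate signals came from the endocrine factors Myt1 at 9.59, Rfx3 at 9.44 and Foxa2 at 9.31, the nuclear receptors Esrrg at 8.77 and Hnf4a at 8.41, and Lmx1b at 8.25. Foxa1 at 7.71 and Mnx1 at 7.50 lay near the limit and exceeded the array's own limit in 3 of 4 arrays each. Tcf7l2, a Wnt pathway factor, gave 7.16, Foxa3 6.54, Hnf4g 6.47 and Nr5a2, an orphan nuclear receptor of acinar and liver cells, 6.26, and none of these 4 exceeded the array's own limit in any array. Among the 15 factors of other islet cells and of progenitors, only Etv1, an ETS factor, was bright at 11.80 ± 0.0611. That is 6.67%, beside 10% of all genes, and 5 were near background (33.3%, beside 36.2%). Neurog3, the factor that starts endocrine differentiation in the embryo, gave 7.12, 7.01, 6.95 and 6.83 and was near background. So were Pou3f4 of alpha cells at 6.96, Hhex of delta cells at 6.29, Sox11 at 6.66 and the acinar factor Ptf1a at 6.78, whereas Meis2 at 9.75, Gata4 at 8.72, Sox4 at 8.40 and Sox9, a factor of progenitors and ducts, at 8.23 lay between.

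**Figure D3:**
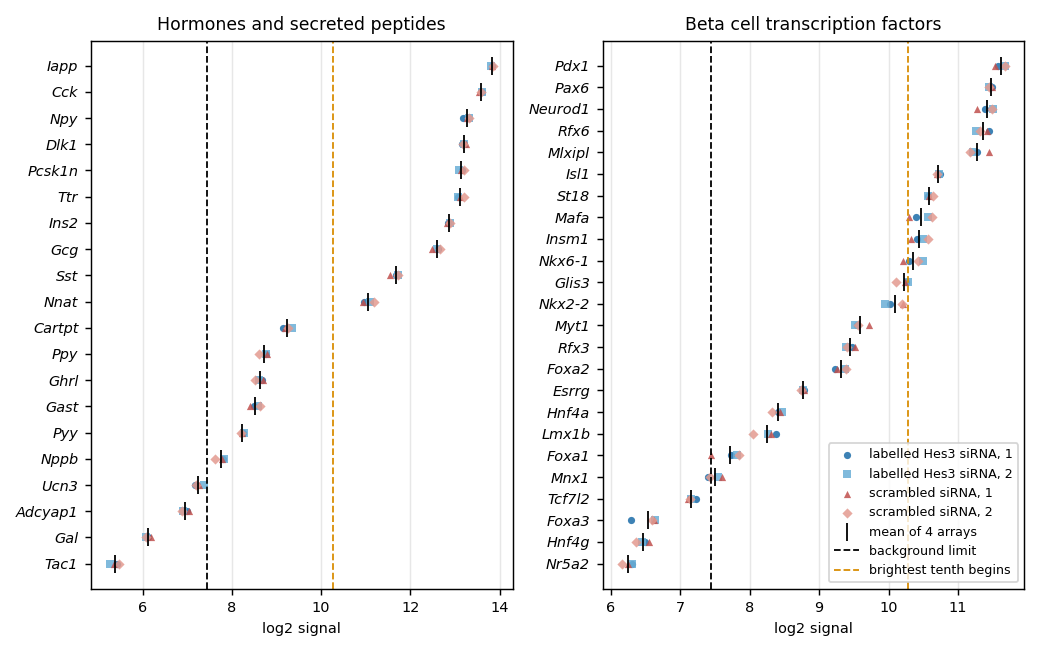
Log2 signal (x axis) in each of the 4 arrays of the 20 measured hormones and peptides (left) and the 24 beta cell transcription factors (right), with symbols for arrays and a bar for the mean; dashed lines mark the background limit of 7.45 and the level of 10.27 from which genes are bright. Members of the hormone list, not all of them hormones, fall into a bright group from Iapp at 13.83 to Nnat at 11.04 and a dimmer group from Cartpt at 9.24 to Tac1 at 5.38. The factors form a gradual series from Pdx1 at 11.62 to Nr5a2 at 6.26.

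The machinery of glucose sensing was unevenly represented. Of 15 genes of glucose entry and coupling, 7 were bright (46.7%, beside 10% of all genes) and 2 near background (13.3%, beside 36.2%). The glucose transporter of rodent beta cells, Slc2a2 (GLUT2), gave 7.62, 7.58, 7.67 and 7.40, a mean of 7.57 ± 0.120 with 39% of genes lower. It exceeded the array's own limit in all 4 arrays, by a small margin. Slc2a1 (GLUT1), the transporter of most cell types, gave 10.48, 10.47, 10.51 and 10.57 and was bright. Slc2a3 (GLUT3), a neuronal transporter, was near background at 6.81, as was Gckr, the glucokinase regulator of liver, at 6.37. Bright members besides G6pc2 were the malate dehydrogenases Mdh2 at 11.85 and Mdh1 at 11.45, G6pc3 at 11.44, Slc30a8, the zinc transporter of the insulin granule, at 11.42, and Gpd2, of the glycerol phosphate shuttle, at 10.53.

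Of 26 genes for ion channels, pumps and calcium-binding proteins, 7 were bright (26.9%, beside 10% of all genes) and 0 near background (beside 36.2%). The subunits of the ATP-sensitive potassium channel lay in different ranges, the first bright and the other between. Abcc8, the sulfonylurea receptor, gave 12.80, 12.67, 12.93 and 12.68, and Kcnj11, the pore subunit, 9.52, 9.45, 9.42 and 9.63. Atp2a2 and Atp2a3, the calcium pumps of the ER, gave 12.95 and 11.39, and Ryr2, a calcium release channel, 11.32 ± 0.193. The dimmest members were Cacnb2, a calcium channel subunit, at 7.48, Itpr2, an inositol trisphosphate receptor, at 7.89, Kcnq1, a potassium channel, at 7.96 and Cacna1h, a T-type calcium channel, at 7.85 to 8.19 by array. The voltage-gated calcium channels Cacna1c at 10.53 and Cacna1d at 9.18, named here after their values were seen, were above background in every array.

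Of 26 receptors and adenylyl cyclases, 6 were bright (23.1%, beside 10% of all genes) and 9 near background (34.6%, close to the 36.2% of all genes). Glp1r, the incretin receptor for glucagon-like peptide, gave 12.69, 12.61, 12.48 and 12.56 at ranks 65 to 85. Ghr, the growth hormone receptor, gave 11.28 ± 0.128, Galr1, a galanin receptor, 11.16 ± 0.0942, Ffar1, the long-chain fatty acid receptor, 10.83 ± 0.0826, and Igf1r 10.49 ± 0.0577. Gipr, the other incretin receptor, lay between at 9.31 ± 0.188, and Gcgr, the glucagon receptor, was near background at 7.37 ± 0.116 and exceeded the array's own limit in 1 of 4 arrays, both chosen after their values were seen. The lowest were Lepr, the leptin receptor, at 5.68, Npy1r, a receptor of neuropeptide Y, at 6.08, Adcy8, a calcium-stimulated adenylyl cyclase, at 6.71 and Gpr39 at 6.73. Npy and Galr1 were thus bright where Npy1r and Gal were near background.

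Of 22 genes described as disallowed in mature beta cells, 2 were bright (9.09%, beside 10% of all genes) and 7 were near background (31.8%, beside 36.2%). The bright ones were Hk1, a low-Km hexokinase, at 11.40 and Oat, ornithine aminotransferase, at 10.44 ± 0.160. The Hk1 signal came from a probe set without a RefSeq messenger RNA, and the probe set that lists one gave 8.73. Ldha, which makes lactate, gave 10.24, 10.12, 10.05 and 10.33, with 89.0% of genes lower, and Maf, a factor of the MAF family, 10.24. Slc16a1, the lactate and pyruvate carrier, gave 8.56 ± 0.0836 and was above the limit in all 4 arrays. Hk2, another low-Km hexokinase, at 6.99, Rest, the repressor of neuronal genes, at 6.42, Zfp36l1 at 5.52 and Mgst1, a microsomal glutathione transferase, at 5.41 were near background. The list thus ran from 11.40 to 5.41 and held members at either end, in shares close to those of all genes.

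The secretory lists had the largest share of bright genes among the classes of lists. Of 142 measured secretory genes, 99 were bright (69.7%, beside 10% of all genes) and 5 were near background (3.52%, beside 36.2%). The reference lists (genes of most cell types and of the cell cycle) came next, with 38 of 73 bright (52.1%). Within them, the genes of most cell types alone had 16 of 21 bright (76.2%), above the secretory share. The list of granins, processing enzymes and granule membrane proteins had 17 bright genes of 22 and a median percentile of 99. Besides Chga, Pcsk1, Ptprn and Chgb, its brightest member was Atp6ap2, an accessory subunit of the proton pump that acidifies granules, at 12.94, and Cpe, the carboxypeptidase that trims proinsulin, gave 12.90 ± 0.0169 after it. Furin, the convertase of the Golgi, gave 10.13 and Qpct, which cyclizes peptide ends, 9.87. The vesicular monoamine transporters were the dimmest, Slc18a1 at 8.28 and Slc18a2 at 7.02, and only the latter was near background.

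Of 31 genes for docking and exocytosis, 9 were bright (29.0%, beside 10% of all genes) and 4 near background (12.9%, beside 36.2%). Snap25, the plasma membrane SNARE, gave 12.19, 12.24, 12.14 and 12.26. Syp, the vesicle protein synaptophysin, gave 12.16 ± 0.0703, and 3 synaptotagmins followed, Syt13 at 11.95, Syt4 at 11.45 and Syt5 at 11.17. The dim members were Doc2b, a calcium sensor, at 7.41, Rims1, an active zone protein, at 7.36, Rab3c, a vesicle GTPase, at 6.61 and Cadps2, a priming factor, at 6.35. Genes of vesicle fusion thus lay both in the bright range and near background.

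Translocation into the ER had 24 bright genes of 30, folding and the unfolded protein response 24 of 29, and traffic between ER and Golgi 25 of 30. No gene of these 3 lists was near background, and their median percentiles were 97.2, 98.1 and 97.0. After the 4 genes named above, the folding list went on with P4hb, a protein disulfide isomerase, at 12.71 ± 0.0352. Its dimmest members were Atf4, the factor that responds to amino acid shortage and ER stress, at 9.75, Ddit3, the stress factor CHOP, at 8.92 ± 0.106, Trib3, a pseudokinase induced by ER stress, at 8.70 ± 0.0923, and Selenok, an ER selenoprotein, at 7.67 ± 0.326. The members named are the brightest and the dimmest of the list, so the contrast between them follows from that choice. In the translocation list, Ddost, a subunit of oligosaccharyltransferase, gave 12.84, while Srp14 and Srp19, of the signal recognition particle, gave 8.34 and 8.27. In the traffic list the cargo receptors Lman1 and Surf4 gave 12.52 and 12.51, Tmed2 12.29, the coat subunit Copa 12.28 and the GTPase Arf1 12.14. The SNARE Bet1 was lowest at 8.27 ± 0.372.

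Promoters of the brightest ER genes are printed here because chaperone genes are known to share the ER stress response element, which is bound by NF-Y together with ATF6 or XBP1. The 250 bases before each annotated start (RefSeq, GRCm38.p6) were searched on both strands for CCAAT followed, after a spacer of any 9 bases, by CCACG. This arrangement was found in 37 of 32851 windows of all genes (0.113%). Of 26 folding genes with a window, 8 held it: Calr, Canx, Creld2, Dnajc3, Hsp90b1, Hspa5, Pdia6 and Syvn1. Among the other lists it was found in 1 window each of Ero1b, an ER oxidase of the granule list, and Acacb, a fatty acid gene at 7.45. The rest of the 37 windows belong to genes that are no measured members of the lists. Counted by signal, 11 of 2084 windows of bright genes (0.528%) and 6 of 6305 windows of genes near background (0.0952%) held it. The bright windows include those of Hspa5, Hsp90b1, Calr, Canx and Ero1b, already named, so this count is not independent of the count by list. The matches are read along the motif, with its fixed letters in capitals and the spacer in lower case:
Hspa5 (chr2:34772025-34772043, plus strand): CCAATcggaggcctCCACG
Hsp90b1 (chr10:86705533-86705551, plus strand): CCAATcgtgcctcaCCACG
Hsp90b1 (chr10:86705638-86705656, minus strand): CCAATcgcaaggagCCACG
Calr (chr8:84847075-84847093, plus strand): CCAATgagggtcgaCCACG
Canx (chr11:50325800-50325818, minus strand): CCAATcaccacgctCCACG
Pdia6 (chr12:17266491-17266509, plus strand): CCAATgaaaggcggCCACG
Creld2 (chr15:88819520-88819538, minus strand): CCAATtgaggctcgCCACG
Dnajc3 (chr14:118937827-118937845, plus strand): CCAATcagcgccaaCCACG
Syvn1 (chr19:6046532-6046550, plus strand): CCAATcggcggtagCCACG
The windows of the brightest folding genes, are given along the gene's own strand with each whole match, spacer included, in capitals:
Hspa5 (chr2:34771840-34772089, plus strand): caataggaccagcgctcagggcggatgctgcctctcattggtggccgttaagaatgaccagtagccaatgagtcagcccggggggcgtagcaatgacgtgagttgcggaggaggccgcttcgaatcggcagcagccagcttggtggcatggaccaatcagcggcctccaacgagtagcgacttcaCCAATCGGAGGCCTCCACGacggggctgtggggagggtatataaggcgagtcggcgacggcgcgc
Hsp90b1 (chr10:86705445-86705694, minus strand): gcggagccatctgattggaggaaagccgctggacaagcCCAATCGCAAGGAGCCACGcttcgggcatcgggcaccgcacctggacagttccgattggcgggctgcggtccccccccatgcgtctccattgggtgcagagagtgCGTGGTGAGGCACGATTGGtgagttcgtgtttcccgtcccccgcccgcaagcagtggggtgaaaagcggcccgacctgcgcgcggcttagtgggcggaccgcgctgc
Hspa5 has a single match that starts 65 bases before the annotated start, and Hsp90b1 has 2 matches in opposite orientation. All of the windows printed end at the base before the annotated start. A match describes the sequence and does not show that a factor was bound.

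A second motif, TGACGTCA, is the palindromic cAMP response element through which CREB acts on peptide and granule genes, and it is shown because Sst is a textbook carrier. It was found in 508 of 32851 windows (1.55%), in 81 of 2084 windows of bright genes (3.89%) and in 69 of 6305 windows of genes near background (1.09%). In the hormone list Sst and Cartpt held it, of 18 genes with a window. In the granule list Chgb, Pcsk1 and Scg2, a secretogranin, held it, also of 18. Among beta cell factors Pax6 held it, of 20. It was not limited to such lists: of 32 oxidative phosphorylation genes 3 held it (Cycs, Ndufa10 and Uqcrfs1), of 21 neuronal genes 2 (Celf3 and Syn1), and of 19 islet receptors and cyclases 2, Ffar3 at 9.45 and Sstr2, near background at 7.13. The windows of the brightest carrier in the granule list and in the hormone list, with the motif in capitals, were:
Pcsk1 (chr13:75089607-75089856, plus strand): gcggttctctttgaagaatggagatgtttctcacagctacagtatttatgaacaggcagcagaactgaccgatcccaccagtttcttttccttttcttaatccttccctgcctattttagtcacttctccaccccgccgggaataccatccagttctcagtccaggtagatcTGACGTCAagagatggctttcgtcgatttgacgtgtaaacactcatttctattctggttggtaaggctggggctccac
Sst (chr16:23890845-23891094, minus strand): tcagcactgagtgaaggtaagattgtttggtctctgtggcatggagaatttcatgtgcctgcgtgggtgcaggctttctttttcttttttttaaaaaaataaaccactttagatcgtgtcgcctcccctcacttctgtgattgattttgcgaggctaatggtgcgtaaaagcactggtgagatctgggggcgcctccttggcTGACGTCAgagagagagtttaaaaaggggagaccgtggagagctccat
The motif lies 78 bases before the start in Pcsk1, which had a mean signal of 13.40, and 48 bases before it in Sst, with 11.67. Cartpt, which also holds it, gave 9.24, so carriers were not alike in signal.

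The metabolic lists followed the reference lists in their share of bright genes. Of 208 measured genes, 79 were bright (38%, beside 10% of all genes) and 16 were near background (7.69%, beside 36.2%). Oxidative phosphorylation had 25 bright genes of 44 and none near background. Atp5b, the catalytic subunit of ATP synthase, gave 13.00, 13.04, 12.82 and 12.99, Cox6c, a subunit of cytochrome c oxidase, 12.59 ± 0.165, and Ndufc2, a subunit of NADH dehydrogenase, 12.54 ± 0.104. The complexes were counted over a set of genes that is not identical to the oxidative phosphorylation list. By complex, 9 of 10 genes of ATP synthase were bright, 4 of 6 of cytochrome bc1, 6 of 11 of cytochrome c oxidase, 2 of 4 of succinate dehydrogenase and 5 of 16 of NADH dehydrogenase. The dimmest were the muscle or lung forms Cox8b at 7.57, Cox4i2 at 7.76 and Cox7a1 at 7.87, and Ndufb3 at 8.04.

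Of 14 glycolytic genes, 6 were bright (42.9%, beside 10% of all genes) and 0 near background (beside 36.2%). Aldoa, aldolase, gave 12.14 ± 0.155, Pkm, pyruvate kinase of most tissues, 11.87 ± 0.0427, Tpi1, triose phosphate isomerase, 11.29 ± 0.216, and Pgk1, phosphoglycerate kinase, 11.20 ± 0.207. The form of pyruvate kinase used in liver and islets, Pklr, was dimmest at 7.76, 7.84, 7.73 and 7.67. Of 30 genes of pyruvate metabolism and the citric acid cycle, 11 were bright (36.7%, beside 10% of all genes). Got2, a mitochondrial aminotransferase, led with 11.75 ± 0.204, before the isocitrate dehydrogenase genes Idh3g at 11.67, Idh2 at 11.09 and Idh3b at 11.08. Pdk4, the kinase that shuts pyruvate dehydrogenase during fasting, was near background at 6.59, and so was Me3, a mitochondrial malic enzyme, at 7.14. Of 18 genes of gluconeogenesis, glycogen and liver glucose handling, only Pck2, the mitochondrial carboxykinase, was bright, at 10.61 ± 0.102. Near background were 6 of the 18 (33.3%), close to the 36.2% of all genes. G6pc, the liver glucose-6-phosphatase, gave 6.12, 6.28, 6.33 and 6.11 and was near background, where the islet form G6pc2 ranked 16.

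Lipid and amino acid genes were bright in part. Scd2, a desaturase, gave 12.72 ± 0.0969, the desaturases Fads1 and Fads2 12.53 and 11.99, Acly, which makes acetyl-CoA from citrate, 12.34 ± 0.0670, and Elovl5, an elongase, 11.70. Cd36, a fatty acid receptor, at 5.29, Ppara, a receptor that drives fatty acid oxidation, at 7.10, and Acacb, a carboxylase of muscle and liver, at 7.45 were the low end of that list, with Plin2, a lipid droplet protein, at 7.84. In cholesterol synthesis 7 of 22 genes were bright and 0 near background, from Insig1, a sterol sensor partner, at 11.06 ± 0.0696 to Pmvk, a mevalonate pathway kinase, at 8.17.

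Among 30 genes of amino acid and one-carbon metabolism 13 were bright (43.3%, beside 10% of all genes). Slc3a2, the heavy chain of amino acid exchangers, gave 12.93, 12.84, 12.77 and 12.79. Asns, asparagine synthetase, gave 12.71 ± 0.115, and the transporters Slc38a2 and Slc7a5 12.56 and 12.50. Th, tyrosine hydroxylase of catecholamine synthesis, was bright at 11.34, 11.42, 11.58 and 11.50. Tph1, the tryptophan hydroxylase of peripheral serotonin cells, gave 7.84 ± 0.150, Gad1, which makes GABA, 7.60, and Tph2, the neuronal tryptophan hydroxylase, 6.65. Aldh1l1, a folate enzyme of liver and astrocytes, gave 6.24. Ddc, the decarboxylase that completes dopamine and serotonin, at 11.19, and Abat, which breaks down GABA, at 10.57, were bright as well, both named after their values were seen. Transmitter enzymes of the list were thus found in the bright range, between and near background.

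Antioxidant genes were uneven as well, with 7 of 25 bright (28%, beside 10% of all genes) and 4 near background (16%, beside 36.2%). Txn1, thioredoxin, gave 12.93 ± 0.115, Sod1, the cytosolic superoxide dismutase, 11.71 ± 0.0427, Prdx2 and Prdx1, peroxiredoxins, 11.33 and 10.66, and Gclm, of glutathione synthesis, 10.76 ± 0.256. The glutathione peroxidases Gpx7, Gpx3 and Gpx2 gave 7.17, 6.84 and 6.64 and exceeded the array's own limit in 0 of 4 arrays each. Cat, catalase, of the disallowed list, gave 7.84, 7.82, 7.69 and 7.75. The peroxide-removing genes named here were therefore found at both the bright and the dim end.

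Genes of other lineages had the largest share near background among the classes of lists. Of 236 measured genes in the non-endocrine lists, 12 were bright (5.08%, beside 10% of all genes) and 140 were near background (59.3%, beside 36.2%). Without the neuronal list the counts were 2 bright (0.957%) and 133 near background (63.6%) of 209. Of those 2, Pmp22, a myelin and membrane protein counted with glia, gave 11.72, 11.67, 11.62 and 11.73. Prom1, the membrane protein prominin counted with ducts, gave 10.89, 10.80, 10.90 and 10.97.

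**Figure D4:**
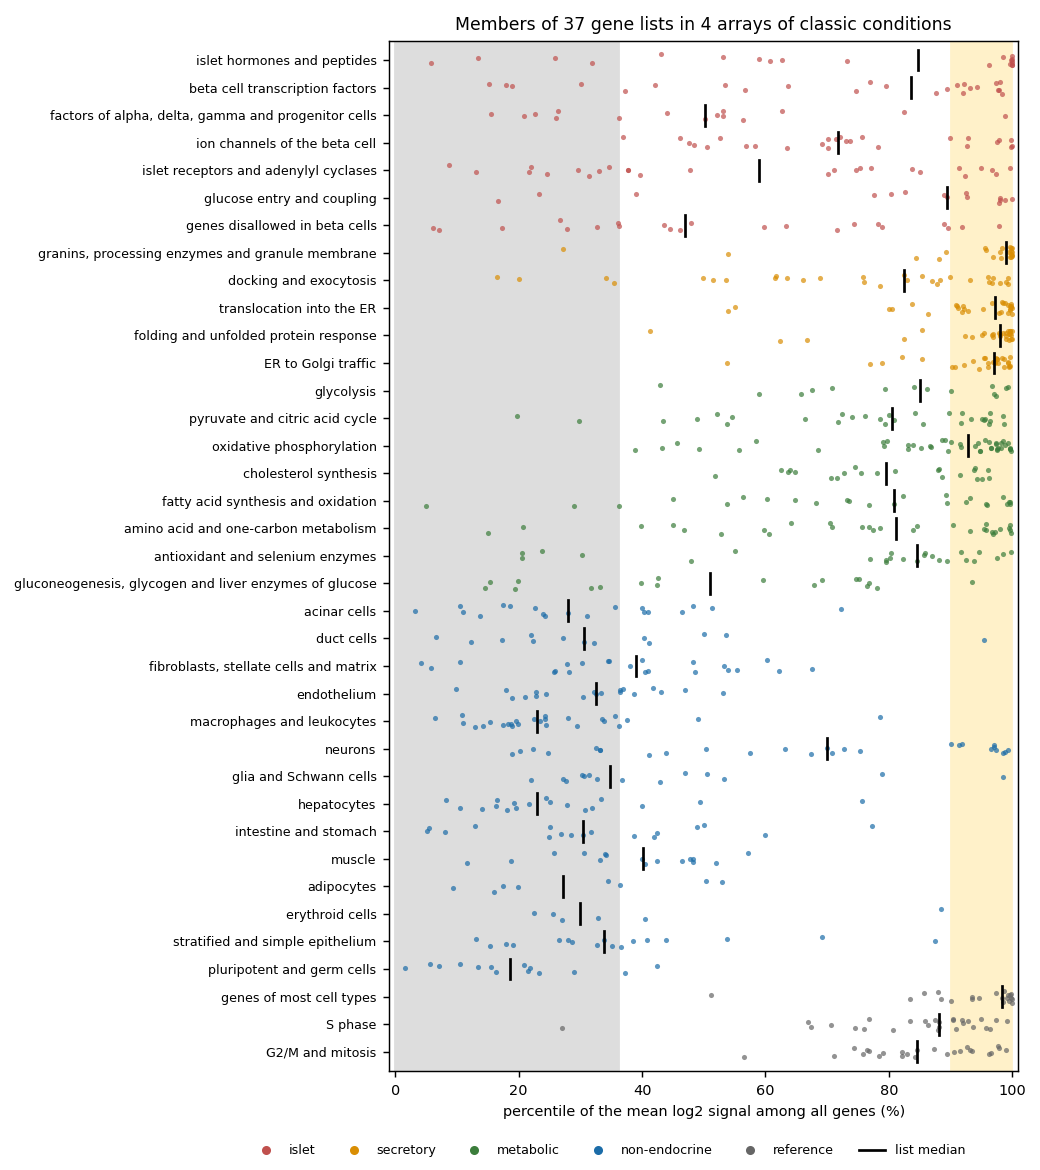
Percentile of each gene's mean signal among all genes (x axis, percent) for the members of 37 lists (y axis), one point per gene, coloured by class, with a black bar at the list's median; grey shading marks genes near background and yellow shading bright genes. The ER and granule lists have medians from 97.0 to 99, leukocytes and hepatocytes medians of 23.0 and germ cells 18.6.

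Exocrine pancreas was represented by 19 acinar genes, with a median percentile of 27.9. Of these 0 were bright and 12 near background (63.2%, beside 36.2% of all genes). Bhlha15, the secretory cell factor MIST1, was the brightest at 9.18 ± 0.153. Digestive enzymes were lower, with Cela2a, an elastase, at 8.15 ± 0.150, Ctrc, a chymotrypsin, at 7.91, Cela1 at 7.66 and Cpb1, a carboxypeptidase, at 5.91. Spink1, a trypsin inhibitor, gave 5.06 and was lowest. Of 13 duct genes, 8 were near background (61.5%). Besides Prom1 at 10.89, Anxa2 gave 8.26, the keratin Krt7 8.09, and Cftr, the chloride channel of ducts, 5.46 ± 0.0970.

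Supporting and blood cell lists held no bright gene and differed in their share near background. Of 26 leukocyte genes 22 were near background (84.6%), of 6 erythroid genes 4 (66.7%) and of 19 endothelial genes 11 (57.9%), beside 36.2% of all genes. Of 22 fibroblast and matrix genes 10 were (45.5%), with a median percentile of 39.1, closer to all genes. Ptprc (CD45), which marks leukocytes, gave 5.89, 5.94, 5.97 and 5.82. Adgre1 (F4/80), which marks macrophages, gave 6.07 ± 0.0890, Kdr, a receptor of endothelium, 6.54 ± 0.133, and Lum, a matrix proteoglycan, 5.39. The exceptions by level were Cd68, a lysosomal protein of macrophages, at 9.52 ± 0.0848, Vim, vimentin, at 8.96 ± 0.167, Col1a1, a collagen, at 8.69 ± 0.0806, and Tfrc, the transferrin receptor of dividing and erythroid cells, at 10.15 ± 0.189. Ptprc, Adgre1 and Kdr lay near background in all 4 arrays, but they do not stand for their whole lists. Of the 19 endothelial genes 5 exceeded the array's own limit in all 4 arrays, and of the 26 leukocyte genes 2 did.

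None of the liver, gut, muscle, fat and germ cell genes was bright. Near background were 15 of 18 hepatocyte genes (83.3%), 10 of 17 gut genes (58.8%), 5 of 8 adipocyte genes (62.5%) and 12 of 14 pluripotent and germ cell genes (85.7%), beside 36.2% of all genes. The muscle list, with 7 of 16 near background (43.8%) and a median percentile of 40.2, lay closer to all genes. The brightest were Apoa2, an apolipoprotein, at 9.36 ± 0.150, Lct, the intestinal lactase, at 9.45 ± 0.0925, Acta1, skeletal actin, at 8.44, Lipe, the hormone-sensitive lipase, at 8.23, and Prm2, a protamine, at 7.73. Nanog and Sox2, factors of pluripotent cells, gave 6.81 and 6.72. Sycp3, a meiotic protein, was the lowest list member named at 4.79 ± 0.0319.

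Of 17 epithelial genes, 0 were bright and 10 near background (58.8%, beside 36.2% of all genes). Tjp1, a tight junction scaffold, gave 10.08 ± 0.0787 and Krt8, a simple keratin, 9.04 ± 0.0688. Epcam, the adhesion molecule of many epithelia, gave 6.49, 6.60, 6.62 and 6.50, with 19.0% of genes lower, and Ocln, the tight junction protein occludin, 6.27. Cdh1, E-cadherin, which was chosen after its values were seen, had a highest array of 7.50 and a lowest of 7.36, close to the limit. The epithelial genes named here thus ran from Tjp1, just under the bright range, to Ocln, near background. Ncam1, the neural cell adhesion molecule that islet cells also carry, was bright at 11.81 ± 0.0518.

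Neuronal genes were the exception among other lineages. Of 27 measured, 10 were bright (37%, beside 10% of all genes) and 7 near background (25.9%, beside 36.2%). Dcx, the microtubule protein doublecortin of young neurons, gave 12.10, 12.20, 12.09 and 12.21 at a mean of 12.15. Celf3, an RNA-binding protein, gave 11.72 ± 0.153, Map2, a dendritic microtubule protein, 11.30 ± 0.0708, and Syn1, the vesicle protein synapsin, 11.21 ± 0.118. The dimmest members of the neuronal list included genes of transmitter use. Chat, of acetylcholine synthesis, gave 6.89, Dbh, of noradrenaline synthesis, 6.75, and Slc17a6, a vesicular glutamate transporter, 6.55, whereas Th and Ddc of another list were bright. Stmn2, a growth cone protein, was near background at 6.62, whereas its relative Stmn3 gave 11.20 by its brighter probe set and 6.08 by the other. Several of the bright neuronal genes, such as Syn1 and Ncam1, are known to be used by endocrine cells as well.

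The cells gave signals of division. Of 27 S phase genes 12 were bright (44.4%), and of 25 genes of G2/M and mitosis 10 were (40%), beside 10% of all genes. None of the G2/M and mitosis genes was near background. Mki67, which marks dividing cells, gave 11.96, 11.98, 11.96 and 11.98. Pcna, the replication clamp, gave 12.03 ± 0.186, Ccnb2 and Ccna2, mitotic cyclins, 11.41 and 11.37, and Cdk1, their kinase, 11.12 ± 0.216. Gins1, a replication factor, was the only S phase gene near background, at 7.01 ± 0.242. Of 21 genes used by most cell types, 16 were bright and 0 near background, and the dimmest was B2m, the light chain of class I histocompatibility molecules, at 8.07, 8.28, 7.74 and 8.44.

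Levels of some genes rest on the choice of probe set. Of 999 genes with several probe sets, the median gap between the brightest and dimmest was 0.726 log2, and 165 had a gap over 2, among them 8 of the 51 list members with several. The 5 largest gaps were those of Ufm1, Top2a, Myo9a, Hibadh and Nlrc5. Top2a, the topoisomerase of dividing cells, gave 11.06 by one probe set and 5.38 by the other. Cycs, cytochrome c, gave 11.68 and 6.87 and Pdia4, an ER disulfide isomerase, 12.55 and 8.29 at its extremes. Where only probe sets that list a RefSeq messenger RNA stood for a gene, a rule chosen after the data were seen, 26 of 18298 genes fell by over 0.5 and 6 by over 2. Under that rule Iapp was the brightest of the named genes.

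**Figure D5:**
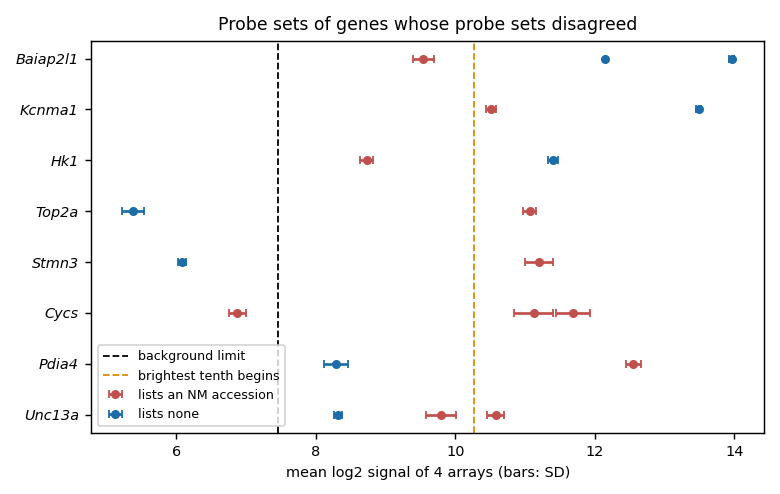
Mean log2 signal of the 4 arrays (x axis, bars are SD) of every single-gene probe set of 8 genes whose probe sets differ (y axis), red where the probe set lists a RefSeq messenger RNA and blue where it lists none. Baiap2l1 spans 13.96 to 9.54 and Top2a 11.06 to 5.38, across the dashed lines of the background limit at 7.45 and of bright genes at 10.27.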

How the data were processed

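RNA of MIN6 cells was measured on Affymetrix arrays, and 4 of the 12 arrays were used. The deposited table gives 1 value per probe set and array for 35556 probe sets. No header or label states its unit: the deposited values are taken as log2 from their range of 3.95 to 14.4. The authors' summarization and normalization steps were not given in the sources used here. The values were used as deposited, with no further scaling. The platform annotation of 2016 gave 21789 probe sets a single symbol, 1621 several and 12146 none.

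Each of 19938 genes was represented by its probe set with the highest mean over the 4 arrays. Means, SDs, ranks and percentiles (the share of other genes with a lower value) were computed with Python 3.11.15, pandas 2.3.3 and numpy 2.4.6. Code was tested on simulated data. No groups were compared, and p-values were not computed. The members and lists (37 lists, 881 entries, 805 measured, 10 through a synonym) were chosen with earlier results of these data known. Ins1 and Gapdh, among other genes of the lists, were not analysed here.

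Named by rule were Hes3, Ins2, the 30 brightest genes without predicted, clone, receptor and small RNA symbols (ribosomal protein genes counted as a group), all hormones and beta cell factors, up to 5 brightest and up to 4 dimmest members of each list, the 10 most variable genes and the 5 largest probe set gaps. The text prints part of them. Other names were chosen after values were seen. Alternatives were other probe set rules, quantile normalization, the median, subsets of arrays and other limits. Promoter windows of 250 bases came from RefSeq (GRCm38.p6) and were matched by symbol for 638 of 805 genes.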

Additional observations from a re-analysis of the deposited data

Results flagged for a closer look

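Of 70 values checked over the 4 arrays (list medians and single genes), 5 had an extreme array whose gap to its neighbour was large beside the range of the 4. Chance gives such a gap in about 5% of values. The median log2 signal of the glycolysis list was 9.84 in scrambled array 1, beside 9.95 in the highest array. Scrambled array 2 was lowest in the other 4 values. The acinar median was 6.97 there, beside 7.09 in the highest array, and the leukocyte median 6.63, beside 6.83. Hes3 gave 6.82 and Cdh1 7.36 in that array. The own background limit of scrambled array 2 was also the lowest, 7.29 beside 7.50 to 7.53. Its part in these values was not tested.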

How the results depend on the processing

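Counts of near-background and of bright genes moved by over 1.5 times only with the background limit. With the 99th percentile of receptor genes as the limit, 10918 genes were near background in place of 7220, islet genes 58 in place of 31, secretory genes 12 in place of 5 and metabolic genes 38 in place of 16. With the 90th percentile, 3 secretory genes were. The median SD was 0.0507 over only the arrays labelled Hes3 siRNA. Of 806 genes (list members and Hes3), 0 to 21 changed class (bright, between or near background) with another probe set rule, normalization, summary or subset of arrays, 53 and 120 with the 90th and 99th percentile as the background limit, and 70 and 84 with bright genes taken from the 95th and 80th percentile. Cycs, Stmn3 and Top2a went from bright to near background when the dimmest probe set stood for a gene. With probe sets that list a RefSeq messenger RNA, a choice made after the data were seen, Hk1 alone left its class. No paired analysis was possible because no result comes from a test between groups. Genes within 1 SD of a limit have no secure class, and low signals cannot be told from probe background.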

Other observations

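Small RNAs were the most variable genes above the background limit. Snord73b, a small nucleolar RNA, gave 9.31, 10.25, 10.53 and 10.63 (SD 0.604), and Rny3, a Y RNA of the Ro particle, 12.08, 12.89, 13.09 and 12.96. Scrambled array 1 was highest in 34 of 41 small nucleolar RNAs above the limit. Of the 200 most variable other genes, it was lowest in 185, while scrambled array 2 was highest in 144. Idi1, an isomerase of the mevalonate pathway, gave 9.02, 8.97, 8.22 and 9.08, and Bex1, a small brain-expressed protein, 8.51, 8.56, 7.88 and 8.85. RNA integrity values were not given in the sources used here. What sets scrambled array 1 apart was not tested.

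Of the 12146 probe sets with no symbol, 5790 (47.7%) lay above the background limit and 947 at the level of bright genes. They belong to no gene count above.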
